A study of Mus musculus with 19 samples.

Results

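The lineage-negative fraction of mouse hindlimb muscle cells, called LinNeg here, was set against the unsorted muscle sample of the same study, called Whole. Libraries were taken by their titles and columns, which gave 8 of the 19 libraries of the series, 4 of LinNeg and 4 of Whole, and all genes were compared. Of 23846 genes listed, 23521 held a number in every library, and 14043 reached 1 FPKM in at least 3 of the 19 libraries and were tested. FPKM counts sequenced fragments per kilobase of a transcript, relative to all fragments mapped in that library.

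LinNeg held the muscle cells left after removal of cells bearing lineage markers, obtained by fluorescence-activated sorting. LinPos (4 libraries) held the cells that bear them, described as endothelial and blood-derived. LinNegSca1Pos (3 libraries) and LinNegSca1Neg (4 libraries) are LinNeg cells with and without the surface protein Sca1, and the labels call LinNegSca1Pos mesenchymal progenitors. Whole is titled a mononuclear cell suspension, but its columns read whole muscle. Which of these was sequenced, and whether it passed through the sorter, is not settled by the labels. All groups came from C57BL/6J mice that received 2.5 mg tamoxifen daily over 5 days at 8 weeks of age, with 10 days of washout. No allele, sex or pooling is named. Replicates are not said to come from different animals, and the p values then cover only the variation among libraries, which may be technical.

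Skeletal muscle consists mostly of multinucleate fibres packed with contractile protein. The mononuclear cells between them include mesenchymal progenitors, satellite cells (the stem cells of the fibre), tendon cells, pericytes, Schwann cells, endothelium and leukocytes. A lineage gate removes endothelium and leukocytes by their surface proteins, such as CD31 and CD45. Immediate early genes, such as Fos and Egr1, encode transcription factors that are switched on within minutes of a stimulus without new protein synthesis, and tissue dissociation is known to be such a stimulus.

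Replicates were alike in rank order, with Spearman's rho across genes of 0.924 to 0.976 within LinNeg and 0.973 to 0.986 within Whole. Between 11740 and 12175 genes reached 1 FPKM in LinNeg libraries, against 10737 to 10884 in Whole libraries. FPKM do not give depth. LinNeg replicates 1 and 2 stood apart from replicates 3 and 4: across the 14043 genes, deviations from the group mean correlated at 0.44 and 0.36 within these pairs and at -0.74 to -0.67 between them, and the labels name no batch. LinNeg replicate 3 held the largest shares of fibre, red cell, neutrophil and MHC class II transcripts of its group, and values that rest on it are given beside the results.

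LinNeg differed from Whole across most of the transcriptome. In the fit across all genes (limma on log2(FPKM + 1), Benjamini-Hochberg adjusted p under 0.05), 6676 of 14043 genes were higher in LinNeg, 47.5% of those tested, and 3062 were lower, 21.8%, together 69.3%. Without any overlap between the 8 libraries, 6491 were higher (46.2%) and 3008 lower (21.4%). Counts of list members are to be read against these shares. The median log2 difference over all tested genes was 0.43 (LinNeg minus Whole) and the 5th and 95th percentiles were -2.27 and 2.65. Higher genes made up 68.6% of the calls on the deposited scale, 48.5% with median-of-ratios scaling, 52.0% with quantile normalization and 59.7% when values were rescaled to the sum outside the fibre genes. Differences near 0.43 thus depend on the scale, and so do some larger ones. With median-of-ratios scaling the log2 difference of Pparg went from 0.79 to 0.28 and that of Ecscr from 1.15 to 0.56, and neither was called. Against LinPos, the other sorted fraction, LinNeg was higher in 3620 of the 14043 genes (25.8%) and lower in 3558 (25.3%). Differences from Whole of at least 32-fold on the log2(FPKM + 1) scale were found for 40 genes higher and 78 lower. Because these are bulk samples, fewer cells of a type and less RNA per cell cannot be told apart.

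**Figure D1:**
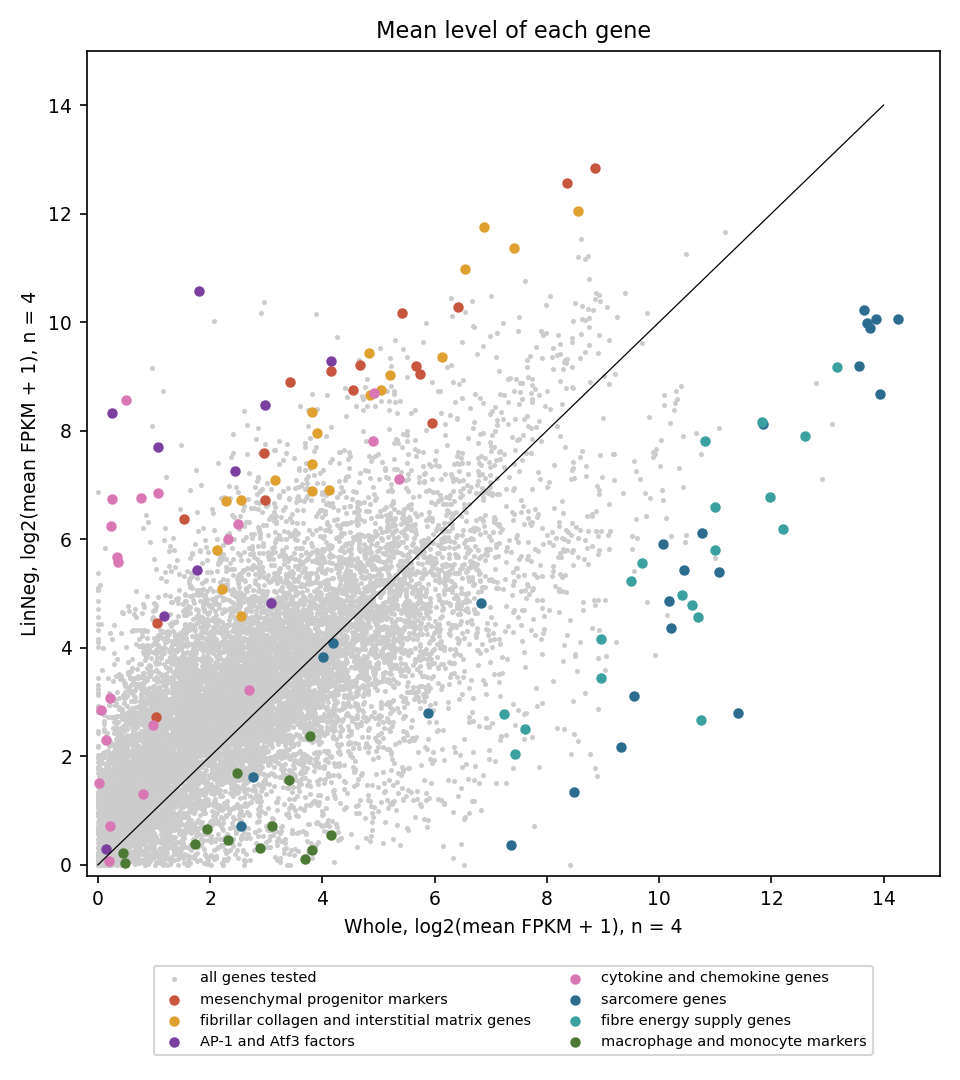
Mean level of each tested gene in LinNeg (vertical axis) and Whole (horizontal axis), both as log2(mean FPKM + 1) with 4 libraries a group. Points above the diagonal are higher in LinNeg: AP-1, mesenchymal and collagen genes and most cytokine genes lie above it, and sarcomere and energy supply genes lie below it, with 2 sarcomere genes beside it.

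The most abundant transcripts of LinNeg encoded matrix and housekeeping proteins, and those of Whole encoded contractile proteins. The 8 genes with the highest mean level in LinNeg were Dcn, Gsn, Sparc, Col3a1, Tpt1, Eef1a1, Col1a2 and Fth1. In Whole they were Tnnt3, Mylpf, Myl1, Tnnc2, Acta1, Tpm1, Tnni2 and Aldoa, of which the first 7 encode sarcomere proteins and Aldoa a glycolytic enzyme. Dcn, the matrix proteoglycan decorin, measured 5999, 8161, 7524 and 7723 FPKM in LinNeg, against 409.5, 476, 543 and 414 FPKM in Whole. Sarcomere genes took 23.9% ± 1.74 of the summed FPKM in Whole (SD, n = 4), which goes against its title of mononuclear cells and with its column name.

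Pecam1 and Ptprc, genes of the lineage gate, and Ly6a, for the Sca1 protein that only divides LinNeg further, behaved differently from each other. Pecam1 (chr11:106654218-106715281, mm10), the gene for CD31 on endothelium, measured 3.70, 5.6, 6.96 and 4.69 FPKM in LinNeg, against 31.3, 32.8, 32.9 and 34.3 FPKM in Whole. No LinNeg library reached the lowest Whole library, and the log2 difference was -2.46 ± 0.34 (SE, limma adjusted p = 4.4e-06). Ptprc (chr1:138062859-138175305), the gene for the leukocyte protein CD45, measured 1.27, 0.616, 3.11 and 0.543 FPKM in LinNeg, against 1.23, 1.05, 1.71 and 1.43 FPKM in Whole, and the groups overlapped. Its log2 difference was -0.09 ± 0.30 (limma adjusted p = 0.79), with LinNeg replicate 3 above all Whole libraries. In LinPos it averaged 131 FPKM. Ly6a (chr15:74994877-74998031), which encodes Sca1, measured 1069, 1479, 1338 and 1088 FPKM in LinNeg, against 64.5, 88.8, 93.1 and 89.4 FPKM in Whole. Every LinNeg library exceeded every Whole library (log2 difference 3.87 ± 0.23, limma adjusted p = 5.4e-11).

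Pdgfra, Fos and Acta1 stood for the lineage-negative stroma, for the early response and for the fibre. Pdgfra (chr5:75152291-75198204), a PDGF receptor that marks mesenchymal progenitors, measured 132, 118, 85.9 and 84.2 FPKM in LinNeg, against 6.90, 5.87, 8.03 and 6.57 FPKM in Whole (log2 difference 3.74 ± 0.19, limma adjusted p = 6.9e-12). Fos (chr12:85473901-85477270), a partner in the AP-1 transcription factor, measured 1654, 2025, 1176 and 1247 FPKM in LinNeg, against 2.60, 3.22, 2.08 and 2.10 FPKM in Whole (log2 difference 8.75 ± 0.21, limma adjusted p = 1.9e-15). Acta1 (chr8:123891758-123894775), skeletal muscle actin, measured 301, 288, 2689 and 752 FPKM in LinNeg, against 14052, 12993, 10692 and 15410 FPKM in Whole. The groups were apart for all 3 genes, but LinNeg replicate 3 held more Acta1 than the other 3 LinNeg libraries together. The log2 difference of -4.34 ± 0.85 (limma adjusted p = 1.8e-04) became -5.03 without that library (limma adjusted p = 4.4e-05). Hic1 (chr11:75164565-75170255), a transcriptional repressor of mesenchymal progenitors, measured 6.10, 6.86, 5.76 and 3.63 FPKM in LinNeg, against 1.49, 0.955, 1.11 and 0.645 FPKM in Whole (log2 difference 1.67 ± 0.20, limma adjusted p = 6.3e-07).

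**Figure D2:**
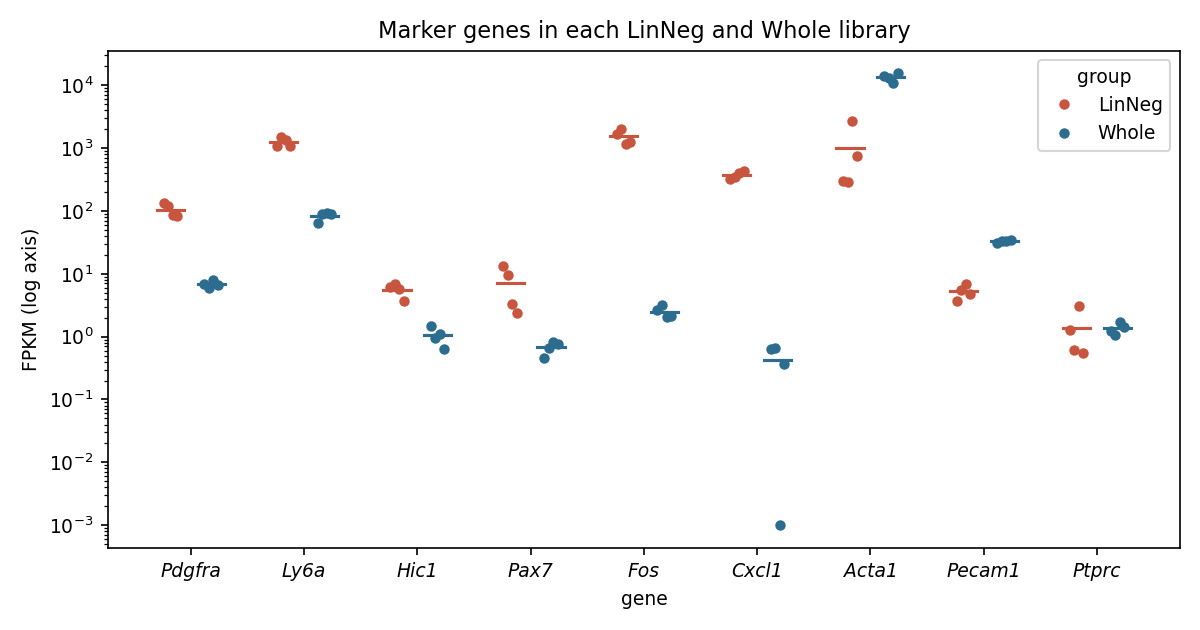
FPKM on a log axis of 9 genes in each LinNeg library (left) and each Whole library (right), with bars at the group means. Fos and Cxcl1 separate the groups most, Acta1 lies lower in all 4 LinNeg libraries, and the Ptprc points overlap.

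The sequences before the start sites of members at both ends of the comparison are shown, since the fibre and early response genes moved most. They are the 250 bases before the RefSeq start on GRCm38.p6, 5′ to 3′ on the gene's strand, for Fos (chr12:85473640-85473889, plus strand), Fosb (chr7:19310046-19310295, minus strand), Myh1 (chr11:67199852-67200101, plus strand) and Myh2 (chr11:67170777-67171026, plus strand). Capitals mark exact matches, on either strand, to the TATA box TATAAA, the E-box CAGCTG, the AP-1 site TGACTCA, the cyclic AMP element TGACGTCA or the CArG box, of which only the first 2 occurred in these windows.
Fos: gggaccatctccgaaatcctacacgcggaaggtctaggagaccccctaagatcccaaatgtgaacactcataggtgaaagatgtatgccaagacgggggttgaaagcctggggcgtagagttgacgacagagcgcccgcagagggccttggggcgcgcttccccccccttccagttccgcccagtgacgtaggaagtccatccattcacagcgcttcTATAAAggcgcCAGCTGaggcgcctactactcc
Fosb: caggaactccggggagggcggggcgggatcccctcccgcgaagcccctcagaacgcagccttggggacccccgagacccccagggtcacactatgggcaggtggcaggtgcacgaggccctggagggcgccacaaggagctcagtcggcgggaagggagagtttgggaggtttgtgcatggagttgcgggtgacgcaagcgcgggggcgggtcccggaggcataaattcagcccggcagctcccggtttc
Myh1: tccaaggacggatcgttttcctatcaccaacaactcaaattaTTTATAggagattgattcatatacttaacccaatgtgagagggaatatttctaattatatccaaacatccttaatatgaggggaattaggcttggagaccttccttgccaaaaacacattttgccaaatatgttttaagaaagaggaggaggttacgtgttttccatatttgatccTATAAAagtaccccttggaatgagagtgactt
Myh2: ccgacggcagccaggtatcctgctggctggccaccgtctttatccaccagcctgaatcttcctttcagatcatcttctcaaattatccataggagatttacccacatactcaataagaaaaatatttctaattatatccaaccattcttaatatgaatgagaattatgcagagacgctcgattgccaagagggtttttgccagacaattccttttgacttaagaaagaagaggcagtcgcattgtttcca

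Counting back from the start site, Fos held a TATA box at -33 to -28 and an E-box at -22 to -17. Myh1 held a TATA box at -32 to -27 and a match to TATAAA on the opposite strand at -208 to -203. Fosb and Myh2 held no exact match to any of the 5 motifs within their windows. Of the 25 sarcomere genes 19 had a promoter in the RefSeq table, and 8 of them (42.1%) held the E-box CAGCTG, a sequence that myogenic factors can bind, against 12.8% of all 27025 promoters. The E-box also stood in 5 of 9 promoters of fibre calcium handling genes (55.6%) and in 6 of 16 of fibre energy supply genes (37.5%). Of the lists higher in LinNeg, AP-1 and Atf3 factors held it in 3 of 10 promoters (30%). Mesenchymal progenitor markers held it in 2 of 8 (25%) and collagen and interstitial matrix genes in 3 of 14 (21.4%). Shares nearer that of all promoters were found for cytokine and chemokine genes, 3 of 17 (17.6%), and feedback regulators, 3 of 19 (15.8%). Egr, Nr4a and Klf factors held it in 1 of 9 promoters (11.1%). Among 17 promoters of cytokine and chemokine genes, 5 held the AP-1 site (29.4%), against 4.43% of all promoters, and 7 held TATAAA (41.2%), against 13%. None of the 10 promoters of AP-1 and Atf3 factors held TGACTCA, and 1, that of Maff, held TGACGTCA, which 1.62% of all promoters hold. Feedback regulators held TGACGTCA in 3 of 19 promoters (15.8%), fibre energy supply genes in 1 of 16 (6.25%) and the other lists in none. The CArG box, the site of serum response factor, stood in 2 of 19 promoters of feedback regulators and of sarcomere genes (10.5% each). It stood in 1 of 9 of Egr, Nr4a and Klf factors (11.1%), in none of the other lists, and in 1.4% of all promoters. Promoters here are only the short windows directly before the start sites. Sites farther upstream were not searched, so the absence of a match does not show that a gene lacks the site.

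Genes of the contractile apparatus were lower in LinNeg. Of 25 sarcomere genes tested 23 were lower and none higher, with a median log2 difference of -4.65. Myh1, the fast IIx myosin heavy chain, measured 3.30, 2.97, 11.5 and 5.88 FPKM in LinNeg, against 3274, 2164, 2214 and 3251 FPKM in Whole (log2 difference -8.75 ± 0.48, limma adjusted p = 2.6e-11). Myh2, the fast IIa heavy chain, measured 1.27, 1.55, 8.18 and 3.03 FPKM in LinNeg, against 749, 549, 474 and 768 FPKM in Whole (log2 difference -7.35 ± 0.42). LinNeg replicate 3 was the highest of its group for both, still far under every Whole library. Ttn, the spring protein titin, measured 0.265, 0.141, 0.459 and 0.272 FPKM in LinNeg, against 164, 157, 154 and 177 FPKM in Whole (log2 difference -7.00 ± 0.15, limma adjusted p = 2.8e-16). Neb, the thin filament ruler nebulin, measured 1.11, 0.564, 2.86 and 1.66 FPKM in LinNeg, against 428, 345, 349.9 and 312 FPKM in Whole (log2 difference -7.21 ± 0.35). Actn2, the Z-disc protein alpha-actinin, had a log2 difference of -6.54 ± 0.37. Outside the list, Nrap and Csrp3, which sit at the ends and discs of myofibrils, Myom2 of the M-band and the stretch-responsive Ankrd2 were among the 12 largest decreases, with log2 differences of -7.34, -6.76, -7.10 and -6.42.

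The abundant fast troponins, tropomyosin and light chains kept more of their level than the long structural genes. Tnnt3, fast troponin T, measured 374, 419, 2602 and 862 FPKM in LinNeg, against 22276, 18759, 17694 and 19198 FPKM in Whole (log2 difference -4.65 ± 0.66). Tnnc2, fast troponin C, measured 235, 304, 2586 and 682 FPKM in LinNeg, against 16102, 13886, 12206 and 13379 FPKM in Whole (log2 difference -4.53 ± 0.79). LinNeg replicate 3 again stood above the others of its group. Myl1, Mylpf, Tnni2 and Tpm1, which encode fast myosin light chains, fast troponin I and tropomyosin, had log2 differences of -4.20, -5.38, -4.92 and -3.89. The sarcomere genes together took 0.718%, 0.721%, 3.61% and 1.38% of the summed FPKM in the LinNeg libraries, against 25%, 23.3%, 21.7% and 25.6% in the Whole libraries. In LinPos, LinNegSca1Pos and LinNegSca1Neg the share was 0.0682% ± 0.0274, 0.0676% ± 0.0405 and 4.76% ± 3.61 (SD, n = 4, 3 and 4). Of the sorted groups LinNegSca1Neg thus had the highest mean.

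The sarcomere members that were not called belong to slow fibres, and they and 2 further genes were named after their values were seen. Tnnt1, slow troponin T, measured 7.67, 15.2, 26.0 and 15 FPKM in LinNeg, against 21.1, 14.1, 12.7 and 20.8 FPKM in Whole (log2 difference -0.18 ± 0.44, limma adjusted p = 0.74). Tnnc1, slow and cardiac troponin C, measured 3.70, 14.7, 24.1 and 10.1 FPKM in LinNeg, against 13.5, 13.2, 9.16 and 24.5 FPKM in Whole (log2 difference -0.34 ± 0.52, limma adjusted p = 0.58). The groups overlapped for both, and LinNeg replicate 3 was the highest of the 8 libraries for Tnnt1. Of the mean Whole level LinNeg held 93.1% for Tnnt1, 87.3% for Tnnc1, 65.5% for the calsequestrin Casq2 and 24.2% for the slow light chain Myl2. It held 7.58% for Acta1, 0.217% for Myh1 and 0.175% for Ttn. The slow genes Myh7 and Tnni1, also named after their values were seen, were lower, with log2 differences of -1.86 ± 0.31 and -1.21 ± 0.48.

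Over the 56 genes of the sarcomere, calcium and energy lists with at least 10 FPKM in Whole, LinNeg held a median of 3.32% of the Whole level. By library the median was 1.70%, 1.78%, 5.57% and 2.40% in LinNeg replicates 1 to 4. The share was lower for longer transcripts: the 29 genes under 2000 bases had a median of 4.80% and the 7 genes of 5000 bases or more a median of 0.432%. Spearman's rho between the share and transcript length was -0.46 over the 56 genes, and -0.28 to -0.51 in the single LinNeg libraries. These genes share libraries and scaling and mix fast and slow fibre genes, so the value is a description. Tnnt1, Tnnc1 and Myl2, named above as slow, have 1059, 721 and 889 bases, and fibre type and length were not separated. Over all tested genes with a known length the relation ran the other way: Spearman's rho between the log2 difference and length was 0.093, with a median log2 difference of 0.18 under 2000 bases and 0.59 from 5000 bases.

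**Figure D3:**
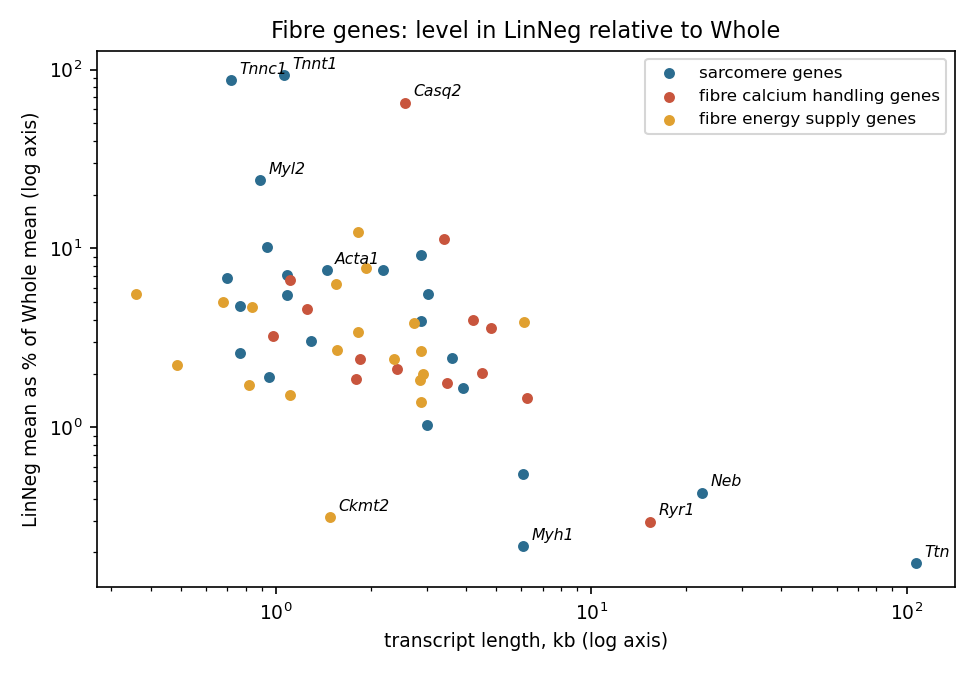
Mean LinNeg level as a percentage of the mean Whole level (vertical log axis) against the length in kilobases of the longest protein-coding transcript (horizontal log axis) for 56 fibre genes. Ttn, the longest, is lowest at 0.175%, and Tnnt1 and Tnnc1 are the highest at 93.1% and 87.3%.

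Genes of calcium release and of fibre energy supply were lower as well. Of 15 calcium handling genes 14 were lower, with a median log2 difference of -5.26. Ryr1, the calcium release channel, measured 0.516, 0.375, 1.31 and 0.371 FPKM in LinNeg, against 246, 226, 184 and 209 FPKM in Whole (log2 difference -7.08 ± 0.21, limma adjusted p = 2.2e-14). Atp2a1, the fast calcium pump, Cacna1s, the voltage sensor, and Casq1, the calcium buffer of the reticulum, had log2 differences of -5.99, -5.68 and -5.66. Casq2 was the member not called, at 16, 22.4, 19.2 and 31.3 FPKM in LinNeg, against 26.3, 22.1, 29.8 and 57.7 FPKM in Whole (limma adjusted p = 0.23). All 19 energy supply genes were lower, with a median of -5.19. Ckmt2, mitochondrial creatine kinase, measured 3.40, 4.53, 9.39 and 4.23 FPKM in LinNeg, against 1654, 1689, 1795 and 1733 FPKM in Whole (log2 difference -8.15 ± 0.30, limma adjusted p = 1.5e-13). Pfkm, muscle phosphofructokinase, Mb, the oxygen store myoglobin, Fabp3, a fatty acid carrier, and Aldoa had log2 differences of -6.19, -6.17, -6.01 and -4.09.

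Subunits of the respiratory chain, which all nucleated muscle cells use, were lower by less. All 22 were lower and none of their libraries overlapped, with a median log2 difference of -3.04 and a range of -4.11 to -1.72. Uqcrc1, a core protein of complex III, measured 33.2, 41.7, 24.3 and 15.2 FPKM in LinNeg, against 481, 489.6, 443 and 504 FPKM in Whole (log2 difference -4.11 ± 0.32, limma adjusted p = 2.7e-09). Cyc1 of complex III and Ndufb8 and Ndufv1 of complex I had log2 differences of -3.98, -3.50 and -3.46. The list took 0.570% ± 0.0528 of the summed FPKM in LinNeg, against 3.02% ± 0.108 in Whole (SD, n = 4 each), and 0.461% ± 0.0223 in LinPos.

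Genes of the nerve-muscle synapse and of the dystrophin complex were split. Of 17 tested 12 were lower and 2 higher, with a median log2 difference of -1.33. Chrne, the adult receptor subunit for acetylcholine, measured 0.0389, 0.123, 0.105 and 0.001 FPKM in LinNeg, against 6.85, 10.5, 8.57 and 6.55 FPKM in Whole (log2 difference -3.08 ± 0.12, limma adjusted p = 3.3e-13), where 0.001 is the lowest value the table lists. The sarcoglycan Sgca and the dystrobrevin Dtna, both partners of dystrophin, had log2 differences of -3.39 and -3.05. Musk, the receptor kinase of the synapse, which satellite cells also express, measured 5.11, 3.12, 2.94 and 3.05 FPKM in LinNeg, against 2.03, 2.57, 1.90 and 1.76 FPKM in Whole (log2 difference 0.56 ± 0.20, limma adjusted p = 0.020). Dag1, dystroglycan, measured 100.4, 72.2, 63.1 and 86.6 FPKM in LinNeg, against 43.1, 44.5, 42.2 and 54.8 FPKM in Whole (log2 difference 0.78 ± 0.18, limma adjusted p = 9.3e-04). Musk lost its call without LinNeg replicate 1 or Whole replicate 4 (limma adjusted p = 0.084 and 0.053). Neither call held with median-of-ratios scaling, where the log2 differences were 0.08 and 0.13 (limma adjusted p = 0.73 and 0.54).

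**Figure D4:**
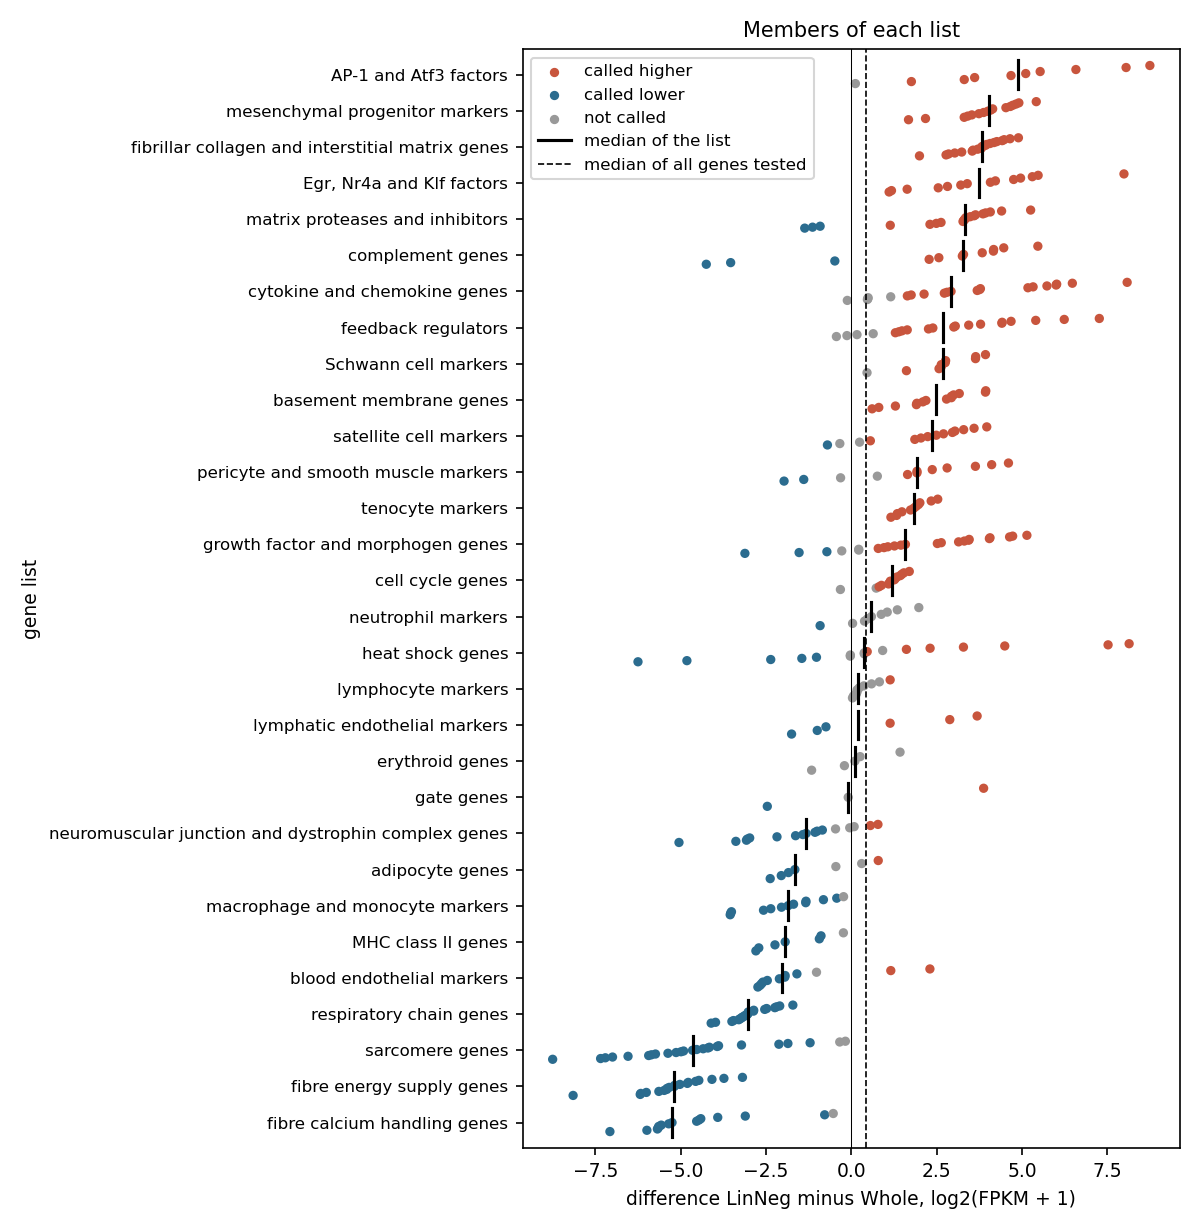
Log2 difference LinNeg minus Whole of each tested member of 30 gene lists, coloured by its call, with a tick at each list's median and a dashed line at the median of all tested genes, 0.43. The medians of the fibre lists lie far left of the line and those of the mesenchymal, collagen and early response lists right of it, with single members nearer to it or across it. Heat shock, protease and growth factor lists reach both sides.

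Immediate early genes were among the largest increases of the comparison. Of 10 AP-1 and Atf3 factors tested 9 were higher and none lower, with a median log2 difference of 4.89. Fosb measured 389, 378, 293 and 220.0 FPKM in LinNeg, against 0.399, 0.197, 0.0558 and 0.110 FPKM in Whole (log2 difference 8.05 ± 0.26, limma adjusted p = 4.3e-14). Junb measured 111, 95.7, 325 and 299 FPKM in LinNeg, against 2.93, 0.687, 0.359 and 0.412 FPKM in Whole (log2 difference 6.58 ± 0.65), higher in LinNeg replicates 3 and 4 than in 1 and 2. Atf3, a stress-responsive partner of these factors, measured 349, 431, 281 and 349 FPKM in LinNeg, against 7.64, 7.14, 9.09 and 3.60 FPKM in Whole (log2 difference 5.53 ± 0.26). The groups were apart for Fosb, Junb and Atf3. Batf, an AP-1 member of lymphoid cells, was not called, at most 0.563 FPKM in LinNeg, against at most 0.269 FPKM in Whole. All 14 Egr, Nr4a and Klf factors were higher, with a median of 3.73. Egr1, a zinc finger factor, measured 1074, 1221, 1003 and 874 FPKM in LinNeg, against 3.58, 4.01, 3.19 and 1.91 FPKM in Whole (log2 difference 7.99 ± 0.20, limma adjusted p = 2.5e-15). The Krüppel-like factors Klf4 and Klf2 and the early response gene Ier2 had log2 differences of 5.47, 4.96 and 5.30.

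The same lists were high in all 4 sorted groups. The AP-1 and Atf3 factors took 0.903%, 0.877%, 0.701% and 0.783% of the summed FPKM in LinNeg, against 0.011%, 0.00874%, 0.0083% and 0.00638% in Whole. The share averaged 0.476% ± 0.0348 in LinPos, 0.596% ± 0.109 in LinNegSca1Pos and 0.890% ± 0.186 in LinNegSca1Neg (SD, n = 4, 3 and 4). Fos averaged 813 FPKM in LinPos, 1315 in LinNegSca1Pos and 1876 in LinNegSca1Neg. Sorting is shared by these 4 groups, and whether Whole underwent it is not stated, so sorting and group cannot be told apart.

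Regulators that limit such responses were higher too. Of 20 feedback regulators 16 were higher and none lower, with a median log2 difference of 2.69. Zfp36, which destabilizes cytokine mRNA, measured 901, 1090.2, 1258 and 1332 FPKM in LinNeg, against 8.13, 5.03, 5.14 and 7.76 FPKM in Whole (log2 difference 7.26 ± 0.23, limma adjusted p = 2.8e-14). Socs3, an inhibitor of cytokine receptor signalling, measured 244, 256, 174 and 172 FPKM in LinNeg, against 1.38, 1.81, 1.97 and 1.97 FPKM in Whole (log2 difference 6.24 ± 0.18). Nfkbiz, a nuclear regulator of NF-kappaB, and Btg2, an antiproliferative gene, had log2 differences of 5.40 and 4.68.

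Heat shock genes moved in both directions. Of 17 tested 7 were higher and 5 lower, with a median of 0.38, close to that of all genes. Hspa1b, an inducible HSP70, measured 300.5, 430.4, 635 and 909 FPKM in LinNeg, against 2.07, 0.605, 0.596 and 0.524 FPKM in Whole (log2 difference 8.14 ± 0.42, limma adjusted p = 1.0e-11). Hspa1a, its near-identical neighbour, between which reads may be split arbitrarily, had a log2 difference of 7.52 ± 0.47. The lower members were the small heat shock proteins of muscle Hspb7, Hspb6, Cryab and Hspb8, with log2 differences of -6.25, -4.82, -2.36 and -1.45, and the mitochondrial chaperone Hspd1, with -1.02. Hspb6 measured 20.0, 25.4, 98.6 and 98.5 FPKM in LinNeg, against 1996, 1214, 1345 and 1071 FPKM in Whole.

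Genes of inflammatory signalling were mostly higher in LinNeg. Of 21 cytokine and chemokine genes 16 were higher and none lower, with a median log2 difference of 2.92. Cxcl1 (chr5:90891245-90893115), a neutrophil attractant, measured 323, 348, 404 and 437 FPKM in LinNeg, against 0.632, 0.668, 0.001 and 0.372 FPKM in Whole (log2 difference 8.08 ± 0.25, limma adjusted p = 2.9e-14). Il6, interleukin 6, measured 83.3, 112, 91.5 and 138 FPKM in LinNeg, against 0.224, 0.0951, 0.216 and 0.212 FPKM in Whole (log2 difference 6.47 ± 0.27). Ptgs2, the inducible cyclooxygenase, which the list counts although it is an enzyme, and Ccl7, a monocyte attractant, had log2 differences of 6.01 and 6.00. LinNeg also exceeded LinPos in 9 of these 21 genes and lay below it in 8. Cxcl1 averaged 38.6 FPKM and Il6 14.2 FPKM in LinPos. Tnfaip6, a hyaluronan-binding protein induced by inflammation, measured 302, 321, 181 and 286 FPKM in LinNeg, against 0.889, 1.23, 0.558 and 1.10 FPKM in Whole (log2 difference 7.12 ± 0.28). Mt2, a metallothionein, measured 570.1, 503, 2296 and 1917 FPKM in LinNeg, against 8.16, 5.01, 3.99 and 9.93 FPKM in Whole (log2 difference 7.16 ± 0.73). It was higher in LinNeg replicates 3 and 4 than in 1 and 2, and no LinNeg library overlapped Whole for either gene.

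Markers of mesenchymal progenitors were higher without exception. All 16 were higher than in Whole, with a median log2 difference of 4.04, and all 16 were higher than in LinPos. Efemp1, a matrix glycoprotein, measured 299.6, 422, 672 and 499 FPKM in LinNeg, against 10.2, 10.4, 8.27 and 9.87 FPKM in Whole (log2 difference 5.42 ± 0.28, limma adjusted p = 1.0e-11). Pi16, a marker of adventitial progenitors, measured 565, 662, 640.0 and 329 FPKM in LinNeg, against 16.9, 20.2, 15.1 and 15.1 FPKM in Whole (log2 difference 4.91 ± 0.30). Dpp4, a surface peptidase of such cells, and Dpt, the matrix protein dermatopontin, had log2 differences of 4.82 and 4.73. The 16 genes took 5.80%, 5.59%, 4.27% and 3.96% of the summed FPKM in LinNeg, against 0.207%, 0.248%, 0.249% and 0.231% in Whole. A large part of the LinNeg share came from a single member, Gsn, whose values are given at the end. The share was 6.62% ± 0.537 in LinNegSca1Pos and 0.724% ± 0.0704 in LinNegSca1Neg (SD, n = 3 and 4).

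**Figure D5:**
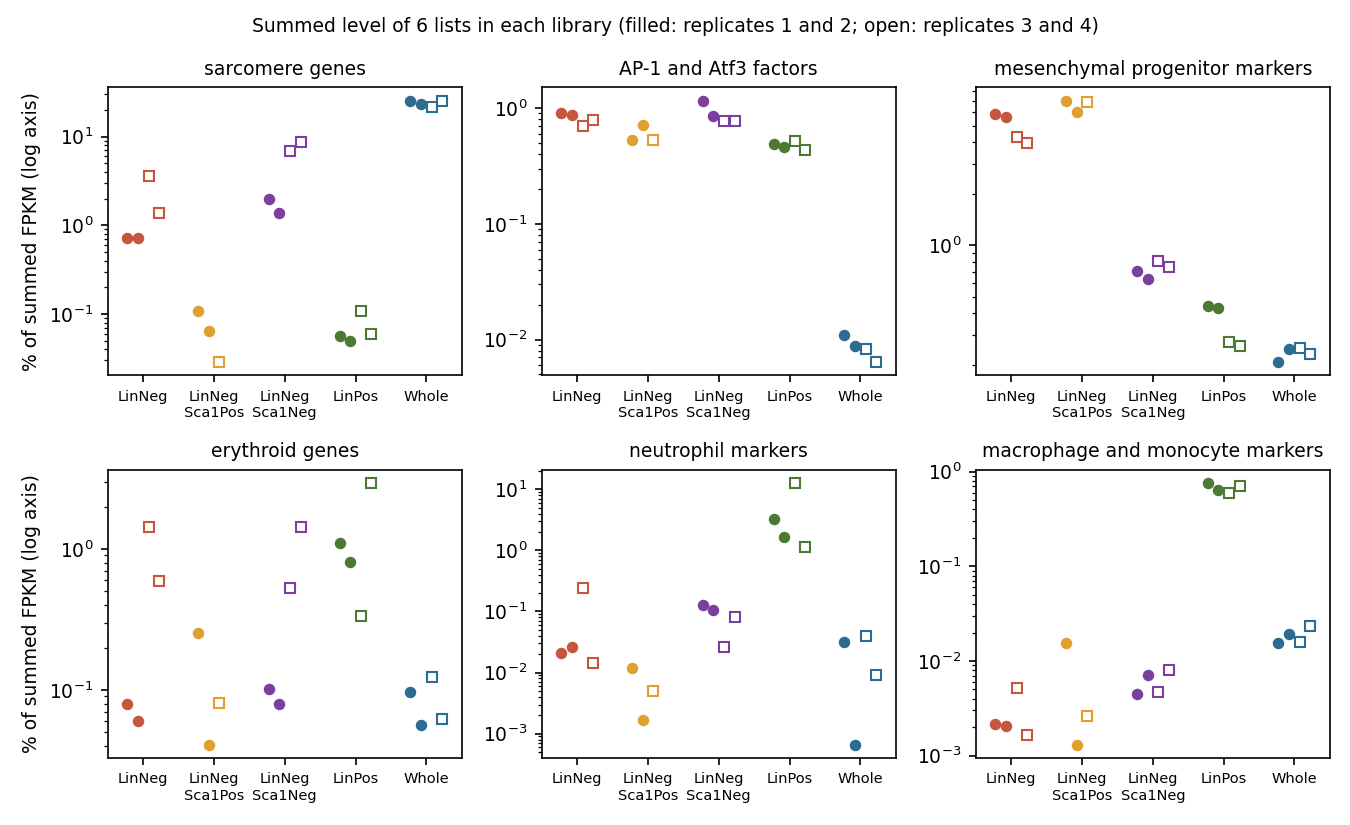
Share of the summed FPKM taken by 6 gene lists in each library of the 5 groups, with filled points for replicates 1 and 2 and open points for replicates 3 and 4. The sarcomere share is 21.7% to 25.6% in Whole and at most 3.61% in LinNeg, and the AP-1 share is at most 0.011% in Whole and 0.701% to 0.903% in LinNeg.

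The matrix that such cells secrete was higher as a group. Each of the 20 genes for fibrillar collagen and interstitial matrix was higher, with a median log2 difference of 3.82, and all 20 were higher than in LinPos. Col3a1, a fibrillar collagen, measured 3203, 3009, 2856 and 4648 FPKM in LinNeg, against 101, 96.2, 94.0 and 173 FPKM in Whole (log2 difference 4.89 ± 0.29, limma adjusted p = 7.2e-11). Replicate 4 was the highest of its group in both LinNeg and Whole. Fn1, fibronectin, Fbn1, fibrillin of microfibrils, and Col14a1, a fibril-associated collagen, had log2 differences of 4.65, 4.47 and 4.42. Sparc, a collagen-binding glycoprotein, measured 3670, 3918, 3925 and 5498 FPKM in LinNeg, against 279, 339, 317 and 559.6 FPKM in Whole (log2 difference 3.54 ± 0.31). All 14 basement membrane genes were higher, with a median of 2.48, and 10 of them were higher and 1 lower than in LinPos. Col4a5, a type IV collagen chain, Nid1, which links laminin to collagen, and the laminin chains Lamb1 and Lamc1 had log2 differences of 3.94, 3.93, 3.16 and 3.00.

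Enzymes that cut the matrix and their inhibitors were mostly higher. Of 20 genes 17 were higher and 3 lower, with a median log2 difference of 3.33. Mmp3, stromelysin, measured 78.3, 124, 54.7 and 33.0 FPKM in LinNeg, against 0.546, 0.758, 0.491 and 1.21 FPKM in Whole (log2 difference 5.25 ± 0.36, limma adjusted p = 4.5e-10). Plat, tissue plasminogen activator, Mmp23 and the aggrecanase Adamts5 had log2 differences of 4.40, 4.07 and 3.93. The lower genes were Timp4, an inhibitor of these enzymes (-1.37 ± 0.32), Adamts8 (-1.14 ± 0.14) and Mmp9, a gelatinase of neutrophils (-0.92 ± 0.38, limma adjusted p = 0.041). Mmp9 lost its call without LinNeg replicate 1, 2 or 4 or Whole replicate 1, 3 or 4 (limma adjusted p = 0.066 to 0.11).

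Growth factors included genes in each direction. Of 23 tested 17 were higher and 3 lower, with a median log2 difference of 1.58. Gdf10, of the TGF-beta family, measured 101, 139, 106 and 161 FPKM in LinNeg, against 2.76, 2.16, 2.15 and 3.29 FPKM in Whole (log2 difference 5.14 ± 0.31, limma adjusted p = 7.3e-11). Fst, follistatin, which binds and blocks myostatin and activins, measured 71.3, 93.5, 108 and 86.1 FPKM in LinNeg, against 2.33, 2.25, 2.59 and 2.41 FPKM in Whole (log2 difference 4.72 ± 0.22). Mstn, myostatin, the fibre's own growth inhibitor, measured 0.400, 0.701, 1.68 and 0.781 FPKM in LinNeg, against 13.9, 14.6, 16.9 and 14.7 FPKM in Whole (log2 difference -3.12 ± 0.25). Follistatin was thus higher and myostatin lower in every LinNeg library. The matricellular genes Cyr61 and Nov had log2 differences of 4.63 and 4.06. The other lower genes were Pdgfb, an endothelial ligand for mural cells (-1.53 ± 0.23), and Vegfa, which acts on endothelium (-0.72 ± 0.24), not called with LinNeg replicates 3 and 4 alone (limma adjusted p = 0.076).

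Complement genes moved in both directions. Of 12 tested 9 were higher and 3 lower, with a median log2 difference of 3.27. C3, the central component, measured 893, 873, 998 and 616 FPKM in LinNeg, against 16.9, 20.3, 14.4 and 20.7 FPKM in Whole (log2 difference 5.46 ± 0.26, limma adjusted p = 5.0e-12). The proteases C1ra and C1s had log2 differences of 4.46 and 4.17. C1qa, a chain of the recognition protein made by macrophages, measured 0.0599, 0.126, 0.0809 and 0.0506 FPKM in LinNeg, against 11.3, 14, 7.17 and 15.4 FPKM in Whole (log2 difference -3.54 ± 0.47). Cfd, factor D of fat cells, measured 0.072, 0.377, 0.974 and 0.244 FPKM in LinNeg, against 30, 18.6, 19.9 and 36.5 FPKM in Whole (log2 difference -4.25 ± 0.29, limma adjusted p = 3.9e-10). Cd59a, a membrane inhibitor of complement, was lower by the smallest margin (-0.49 ± 0.21, limma adjusted p = 0.046). Its call was lost without LinNeg replicate 1, 2 or 3 or any 1 Whole library (limma adjusted p = 0.05014 to 0.18), and without LinNeg replicate 1 the log2 difference was -0.32.

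Other resident cells of the lineage-negative compartment left their markers in LinNeg. Of 14 satellite cell markers 11 were higher and 1 lower, with a median log2 difference of 2.36, and all 14 were higher than in LinPos. Pax7 (chr4:139738081-139832968), the defining factor of satellite cells, measured 13.3, 9.53, 3.31 and 2.42 FPKM in LinNeg, against 0.450, 0.651, 0.835 and 0.773 FPKM in Whole (log2 difference 2.04 ± 0.40, limma adjusted p = 2.0e-04). LinNeg replicates 1 and 2 lay above 3 and 4, and the log2 difference was 2.88 from the first pair alone and 1.20 from the second. Myf5, an early myogenic factor, measured 12.9, 21.0, 14.5 and 14.8 FPKM in LinNeg, against 0.923, 1.16, 1.57 and 0.566 FPKM in Whole (log2 difference 3.03 ± 0.17). Chrdl2 and Chodl, markers of satellite cells, and the adhesion receptor Vcam1 had log2 differences of 3.97, 3.59 and 3.29. Myod1, the commitment factor, measured 3.85, 4.57, 1.38 and 2.13 FPKM in LinNeg, against 6.83, 4.30, 3.80 and 6.07 FPKM in Whole (log2 difference -0.70 ± 0.26, limma adjusted p = 0.023). Its groups overlapped, and the call was lost without LinNeg replicate 3 or 4 or Whole replicate 1 or 4 (limma adjusted p = 0.061 to 0.10).

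All 11 tenocyte markers were higher, with a median log2 difference of 1.83. Tnmd, tenomodulin, measured 116, 162, 128 and 334 FPKM in LinNeg, against 23.4, 24.0, 23.9 and 47.5 FPKM in Whole (log2 difference 2.53 ± 0.35, limma adjusted p = 4.2e-06). Kera, keratocan, Thbs4, a thrombospondin, and Chad, chondroadherin, had log2 differences of 2.34, 2.01 and 1.96. Replicate 4 was the highest in both groups for Tnmd, Kera and Thbs4, although the labels give the number no meaning. Of 10 Schwann cell markers 9 were higher, with a median of 2.69. The potassium channel Kcna1 and Prx, the myelin protein periaxin, had log2 differences of 3.64 and 2.76.

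Markers of pericytes and smooth muscle moved in both directions. Of 12 tested 8 were higher and 2 lower, with a median log2 difference of 1.92. Acta2, smooth muscle actin, measured 398, 604, 587 and 917 FPKM in LinNeg, against 20.4, 25.7, 20.2 and 30 FPKM in Whole (log2 difference 4.6 ± 0.48, limma adjusted p = 1.2e-07). Myh11, smooth muscle myosin, Tagln and Cnn1, which bind smooth muscle actin, had log2 differences of 4.11, 3.63 and 2.80. Rgs5, a signalling regulator of pericytes, measured 49.3, 37.7, 23.0 and 59.3 FPKM in LinNeg, against 107, 91.0, 129.5 and 103 FPKM in Whole (log2 difference -1.40 ± 0.40, limma adjusted p = 0.0048). Abcc9, a channel subunit of pericytes and of muscle, measured 12.1, 10.8, 6.69 and 15.1 FPKM in LinNeg, against 43.3, 41.3, 47.2 and 49.1 FPKM in Whole (log2 difference -1.97 ± 0.22). No library overlapped for either gene.

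Markers of the cells that the gate removes were lower in LinNeg, with exceptions. Of 12 blood endothelial markers 9 were lower and 2 higher, with a median log2 difference of -2.03. Egfl7, Kdr, Tie1 and Flt1, a secreted vessel factor and endothelial receptor kinases, had log2 differences of -2.74, -2.68, -2.63 and -2.59. Kdr measured 1.38, 1.79, 1.62 and 0.985 FPKM in LinNeg, against 14.6, 14.3, 15.4 and 13.7 FPKM in Whole. Tek, the angiopoietin receptor, measured 55.0, 55.7, 48.5 and 35.2 FPKM in LinNeg, against 8.50, 9.12, 10.3 and 7.88 FPKM in Whole (log2 difference 2.30 ± 0.26, limma adjusted p = 3.9e-07). It averaged 43.7 FPKM in LinNegSca1Pos and 70.3 FPKM in LinPos, while Kdr averaged 2.22 FPKM in LinNegSca1Pos and 137 FPKM in LinPos. Ecscr, a surface protein of endothelium, was the other higher gene (log2 difference 1.15 ± 0.26), and it was not called with median-of-ratios scaling (limma adjusted p = 0.058). The 6 lymphatic markers fell into 3 higher and 3 lower. Pdpn, podoplanin, which stromal cells share, Reln, a secreted glycoprotein, and Prox1, the lymphatic fate factor, had log2 differences of 3.68, 2.88 and 1.13. Lyve1, a hyaluronan receptor that macrophages share, Flt4, a VEGF receptor, and Mmrn1, multimerin, had -1.75, -1.0 and -0.75. The 3 higher genes were also higher than in LinPos and the 3 lower genes lower. Reln and Prox1 averaged 31.4 and 5.01 FPKM in LinNegSca1Neg and 0.820 and 0.240 FPKM in LinPos. Lyve1 and Flt4 averaged 107 and 8.74 FPKM in LinPos.

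Macrophage and MHC class II genes were lower, from a low level in Whole. Of 13 macrophage and monocyte markers 12 were lower and none higher, with a median log2 difference of -1.86. C1qb measured 0.245, 0.513, 0.331 and 0.776 FPKM in LinNeg, against 11.0, 18.4, 12.9 and 25 FPKM in Whole (log2 difference -3.55 ± 0.45, limma adjusted p = 1.5e-06). C1qc and the mannose receptor Mrc1 had log2 differences of -3.51 and -2.58. The list took 0.00275% ± 0.0016 of the summed FPKM in LinNeg, against 0.0185% ± 0.00376 in Whole (SD, n = 4 each), and 0.675% ± 0.0694 in LinPos. Of 7 MHC class II genes 6 were lower, with a median of -1.94. H2-Aa, an antigen-presenting chain, measured 2.97, 3.18, 10.3 and 3.13 FPKM in LinNeg, against 24.4, 35.9, 37.0 and 49.9 FPKM in Whole (log2 difference -2.80 ± 0.60). Cd74, the invariant chain, and H2-Eb1 had log2 differences of -2.71 and -2.24. H2-Ab1 had -1.94, and its call was lost without LinNeg replicate 1 or 2 (limma adjusted p = 0.068 and 0.055) and with replicates 3 and 4 alone (limma adjusted p = 0.31).

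Fat cell genes were lower in part. Of 7 tested 4 were lower and 1 higher, with a median log2 difference of -1.66. Adipoq, adiponectin, measured 1.29, 3.20, 0.209 and 0.610 FPKM in LinNeg, against 7.26, 7.5, 11.0 and 15.2 FPKM in Whole (log2 difference -2.38 ± 0.35, limma adjusted p = 9.8e-06). The hormone resistin, Retn, the lipid droplet gene Cidec and Fabp4, a fatty acid carrier shared with endothelium, had log2 differences of -2.05, -1.84 and -1.66. Fabp4 was not called with LinNeg replicates 3 and 4 alone (log2 difference -1.26, limma adjusted p = 0.061). Pparg, the fat cell regulator, was higher (0.79 ± 0.20), but not with median-of-ratios scaling (log2 difference 0.28, limma adjusted p = 0.24).

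Markers of lymphocytes, neutrophils and red cells showed few calls. Several spread widely in LinNeg, and the limma SE also takes in the spread of groups outside the comparison. Of 10 lymphocyte markers 1 was higher, the B cell gene Cd79a, at 1.76, 0.948, 3.91 and 0.320 FPKM in LinNeg, against 0.177, 0.001, 0.172 and 0.0844 FPKM in Whole (log2 difference 1.14 ± 0.45, limma adjusted p = 0.033). The call was lost without LinNeg replicate 1 or 3 or any 1 Whole library (limma adjusted p = 0.051 to 0.13), and without LinNeg replicate 4 the list had 2 higher genes. Of 9 neutrophil markers only Mmp9 was called. S100a8, an abundant neutrophil protein, measured 30, 43.9, 709.9 and 39.1 FPKM in LinNeg, against 65.6, 0.724, 83.7 and 16.1 FPKM in Whole (log2 difference 1.97 ± 1.21, limma adjusted p = 0.16). None of 5 red cell genes was called in the limma fit, and 0 had an unadjusted p under 0.05. Beta-s, a beta globin, measured 242, 221, 6535 and 2411 FPKM in LinNeg, against 439, 253, 526 and 276 FPKM in Whole (log2 difference 1.42 ± 1.11, limma adjusted p = 0.26). LinNeg replicates 3 and 4 held more of it than any Whole library, and replicates 1 and 2 less. Hbb-b1, another beta globin, went the other way and was lower in every LinNeg library than in any Whole library. It measured 25.68, 24.98, 15.98 and 8.03 FPKM in LinNeg, against 40.39, 27.04, 67.91 and 32.71 FPKM in Whole. Its log2 difference was -1.17 ± 1.17 (limma adjusted p = 0.39). That SE rests on all 5 groups. Hbb-b1 had an SD of 8.36 FPKM in LinNeg and 18.1 in Whole. In LinPos it averaged 220 FPKM with an SD of 260. The 2 beta globin genes lie close together, Beta-s at chr7:103826523-103827928 and Hbb-b1 at chr7:103812528-103813923. How reads were divided between them was not tested, so their opposite directions may not be separate results. In LinNeg replicate 3, Beta-s gave 6535 of the 6582 FPKM of the red cell list. The red cell list took 0.0795%, 0.0600%, 1.44% and 0.593% of the summed FPKM in LinNeg, against 0.0566% to 0.124% in Whole, and the neutrophil list 0.245% in LinNeg replicate 3 and 0.0144% to 0.0265% in the other LinNeg libraries. Their part in the other values of LinNeg replicate 3 was not tested.

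Cell cycle genes were higher from low levels. Of 14 tested 12 were higher and none lower than in Whole, with a median log2 difference of 1.20, and 13 were lower than in LinPos. Ccnb2, a mitotic cyclin, measured 2.21, 3.00, 8.09 and 3.86 FPKM in LinNeg, against 0.449, 0.257, 0.728 and 0.643 FPKM in Whole (log2 difference 1.70 ± 0.37, limma adjusted p = 5.8e-04). Birc5, survivin, Top2a, a topoisomerase of dividing cells, and Ccna2, a cyclin of DNA replication, had log2 differences of 1.54, 1.48 and 1.43. Ccna2 was not called with LinNeg replicates 1 and 2 alone (limma adjusted p = 0.064). LinNeg replicate 3 was the highest of its group for all 4, and Birc5 was not called without it (limma adjusted p = 0.064). With LinNeg replicates 1 and 2 alone 6 of the 14 genes were called.

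Values against LinPos placed LinNeg between the other sorted fraction and Whole for some lists. Sarcomere genes were higher in LinNeg than in LinPos in 23 of 25 cases and lower than in Whole in 23 of 25, and the energy supply genes higher than in LinPos in 17 of 19 and lower than in Whole in all 19. Among AP-1 and Atf3 factors 4 of 10 were higher and 1 lower than in LinPos, and among feedback regulators 2 of 20 were higher and 8 lower. The comparisons share the LinNeg libraries, so their counts are given side by side only. Counts against LinPos come from the fit without a replicate block. With that block over all groups 3861 genes were higher and 3804 lower than in LinPos, against 3620 and 3558 without it. List members were not counted against LinPos with the block. Respiratory chain genes, 22 of 22 lower than in Whole, were called higher than in LinPos in 1 case, Atp5a1, which was named after its value was seen (log2 difference 0.42, limma adjusted p = 0.030).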

How the data were processed

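Stranded libraries were made from polyadenylated RNA, per the labels' protocols. The authors deposited 1 FPKM value per gene and library, per the file headers. The submitters' processing notes name Cufflinks, Bowtie2, TopHat2 and bcl2fastq, with mm10 as build. Their versions and roles, like the gene annotation, were not given in the sources used here. Left out were 311 genes with status words in every column and 14 with some. A further 4 columns that match no sample were not used, and 252 symbols that occur repeatedly were tested but not named. Coordinates come from the deposited table, counted from 1, and promoters from RefSeq on GRCm38.p6.

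No count model or counting interval was used, since FPKM give no depth. Low values put the depth of LinNeg libraries roughly at 0.55 to 0.88 times that of Whole replicate 1, and Whole libraries at 0.42 to 1 times. The scale was log2(FPKM + 1), on which differences of low genes come out too small. The filter asked for at least 1 FPKM in 3 or more of the 19 libraries. All 5 groups entered 1 limma fit with moderated variances, a trend and 14 residual degrees of freedom, and two-sided p values were adjusted over the 14043 genes after Benjamini and Hochberg, with 0.05 as threshold. Lengths are of the longest protein-coding transcript in GENCODE vM21. Software was limma 3.58.1 under R 4.3.3, and for tables and figures matplotlib 3.10.9, scipy 1.17.1, pandas 2.3.3 and numpy 2.4.6 under Python 3.11.15.

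Replicate numbers paired LinNeg with LinPos: libraries of the same number deviated together from their group means, at correlations of 0.44 to 0.70 across genes, and each of the 4 LinNeg libraries correlated most with the LinPos library of its number. No label says what a number marks.

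The groups compared and the gene lists were chosen with earlier results of these data known. The text names Pdgfra, Fos, Acta1, Pecam1, Ptprc, Ly6a, Hic1 and Pax7. It also names the 12 largest differences in each direction among called genes without overlap whose higher group averaged 10 FPKM or more. Of each list it names up to 4 members with the largest difference and those called against most of it, and of each group the 8 most abundant genes. Some members that this rule selects are not reported here. List members that were not called were named after their values were seen. Ly6g and Hbb-bt were not found, Hba-a1 and Ccl19 occur repeatedly, Myh4 held status words, and Hbb-bs is listed as Beta-s. Alternatives were other pseudocounts, filters, scalings and fits, the replicate block, each replicate left out, and LinNeg replicates 1 and 2 or 3 and 4 alone.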

Additional observations from a re-analysis of the deposited data

Results flagged for a closer look

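Values were looked at in 386 groups of 4 libraries, and in 23 the highest or lowest library stood farther from the others than the critical value of Dixon's test allows, where chance gives about 1 in 20 groups. LinNeg replicate 3 gave 7 of them. S100a8 measured 709.9 FPKM there (30 to 43.9 in the other 3), H2-Aa 10.3 (2.97 to 3.18), Cd3g 1.04 (0.108 to 0.134), Slc4a1, the anion exchanger of red cells, 3.98 (0.001 to 0.118) and Aldoa 1002.6 (421.7 to 471.7). Cyr61 was low at 267.2 FPKM (347.5 to 357.7), and MHC class II genes took 0.0105% of the summed FPKM (0.00365% to 0.00404%). In LinNeg replicate 1, Musk was at 5.11 FPKM (2.94 to 3.12) and Cd59a at 10.2 (16 to 17.5). In LinNeg replicate 4, Adamts5 was at 81.0 FPKM (85.7 to 86.3) and Sparc at 5498.3 (3670 to 3924.7).

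Whole replicate 4 gave 7 as well. The tendon genes Tnmd and Kera measured 47.5 and 34 FPKM there (23.4 to 24.0 and 14.3 to 15.4 in the other 3), Col3a1 172.8 (94.0 to 101.3) and Fn1 42.7 (21.7 to 24.2), and collagen and interstitial matrix genes took 0.312% of the summed FPKM (0.167% to 0.179%). Fabp3 was low at 672.6 FPKM (1748.5 to 1905.5) and Hspb7 at 215.9 (413.6 to 447.9). In Whole replicate 1, Ly6a was at 64.5 FPKM (88.8 to 93.1), Hspa1b at 2.07 (0.524 to 0.605) and Cd3g at 0.0481 (0.001). Il6 was at 0.0951 FPKM in Whole replicate 2 (0.212 to 0.224), and cell cycle genes took 0.00844% of the summed FPKM in Whole replicate 3 (0.00691% to 0.00702%).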

How the results depend on the processing

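Between 5195 and 7276 genes were higher and 2640 to 3677 lower than in Whole under the other pseudocounts, filters, fits, LinNeg pairs and rescaling outside the fibre genes, against 6676 and 3062 as reported. With median-of-ratios scaling 4601 were higher and 4878 lower, and with quantile normalization 4799 and 4433. At least 2-fold and called were 4107 higher and 1946 lower than in Whole, and 2012 higher and 2096 lower than in LinPos. Leaving out single replicates gave 6315 to 6581 higher and 2870 to 3045 lower than in Whole, and 3269 to 3556 higher and 3295 to 3560 lower than in LinPos.

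The replicate block gave 4255 higher and 4233 lower than in LinPos, with which the numbers paired LinNeg, against 3299 and 3090 in the same groups without it. Whole shared only a number with LinNeg: same-numbered deviations correlated at -0.34 to 0.18, 1 of 4 libraries correlated best with its own number, and the block gave 6718 higher and 3068 lower, against 6971 and 3255 in the same groups without it.

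Of results for single genes and lists, 4746 were the same, 62 weaker, 21 stronger, 58 moved and 13 reversed. Those that reversed had not been called. Alas2 had log2 differences of -0.27 (median-of-ratios), -0.26 (quantile), -0.00149 (rescaled), -0.33 to 0.63 (leaving out single replicates) and -0.57 (LinNeg replicates 1 and 2 only), the last with Beta-s at -0.62. Tpt1 had -0.19 (median-of-ratios). Leaving out single replicates gave Slc4a1 -0.77 to 0.0011 and Ptprc -0.39 to 0.076, and LinNeg replicates 3 and 4 only gave 0.41 and 0.10. The cause was not tested. Depth limits genes under about 1 FPKM, where LinNeg and Whole libraries listed many at 0.001.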

Other observations

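Of the abundant LinNeg genes that no list held, Tpt1 and Fth1 were not called, and Eef1a1 was higher in LinNeg. Tpt1, a translationally controlled growth protein, measured 2177, 3411, 4155 and 3283 FPKM in LinNeg, against 2313, 2126, 2308 and 2496 FPKM in Whole (log2 difference 0.46 ± 0.31, SE, limma adjusted p = 0.20), and the groups overlapped. Fth1, the heavy chain of the iron store ferritin, measured 1385, 2241, 3586 and 2611 FPKM in LinNeg, against 1639, 1457, 1371 and 1244 FPKM in Whole (log2 difference 0.71 ± 0.35, limma adjusted p = 0.081), with LinNeg replicate 1 inside the range of Whole. Eef1a1, a translation elongation factor, measured 2943, 3917, 2966 and 2032 FPKM in LinNeg, against 306, 386, 395 and 465 FPKM in Whole (log2 difference 2.91 ± 0.29, limma adjusted p = 7.7e-08), and the groups did not overlap. Gsn, the actin-severing protein gelsolin and a member of the mesenchymal progenitor list, measured 7776, 7576, 5419 and 3412 FPKM in LinNeg, against 298, 385, 284 and 344 FPKM in Whole (log2 difference 4.14 ± 0.34), and averaged 15085 FPKM in LinNegSca1Pos and 378 FPKM in LinNegSca1Neg. The mesenchymal progenitor list with Gsn summed to 19759, 23087, 19501 and 16169 FPKM in the same LinNeg libraries.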
